A study of Sus scrofa with 21 samples.

Results

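Immediate early genes are the first genes a cell transcribes when it is stimulated, wounded or put under stress, because their activation needs no new protein. Kinase cascades reach transcription factors already bound at their promoters, such as SRF with its ELK partners and CREB. The transcripts then rise and decay within a short time. In vessel tissue they are known to respond to stretch, flow, injury and tissue handling. The 9 genes described here were listed by symbol, and all 9 were present among the 24358 genes of the count table, with 1 row each. They are the AP-1 subunits FOS, FOSB, JUN and JUNB, the related factor ATF3, the transcription factors EGR1 and NR4A1, the nuclear protein IER2 and the phosphatase DUSP1.

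The levels were measured by bulk RNA sequencing of 21 pig (Sus scrofa) libraries, in a study of an endovascular device for sampling the cells that line vessels. A 3D-printed microbrush had been used in a peripheral artery of the kidney (5 libraries, microbrush 1, 2, 3, 5 and 10) or of the liver (5 libraries, microbrush 4, 6, 7, 8 and 9). A bare Nitinol wire, the negative control, gave 4 libraries, of which wires 2 and 4 came from the kidney artery and wires 1 and 3 from the liver artery. Aorta removed by surgery, the positive control, gave 4 libraries, and whole blood gave 3. The brush and wire libraries came from 2 animals, pigs 243K and 248K, with 5 brush and 2 wire libraries apiece. Blood 1 and 2 were from pig 243K and blood 3 from pig 248K. All 4 aorta libraries came from another animal, pig 237053, so tissue and pig cannot be told apart wherever aorta is compared. No strain, age, sex, treatment or time between sampling and lysis is given in the labels. Several libraries share an animal, and the p-values therefore measure the spread between libraries, which may be technical.

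Library totals ran from 1144932 to 10188552 estimated counts on the brush, from 1946286 to 11128400 on the wire, from 1603229 to 3033008 in aorta and from 3224540 to 5301288 in blood 1 and 3. Blood 2 held 5634 counts over 302 genes and 0 counts for the 9 genes, which allows them a share of up to 0.0532% of that library, so it was left out of levels and fits. Microbrush 4 had counts for 3831 genes, wire 2 for 9715 and wire 3 for 10169, against 12653 to 20032 in the other 17 libraries used. The labelled sources carried their defining markers: HBB, a haemoglobin chain, averaged 32858 ± 9307 CPM (counts per 1000000 counts; SD, n = 2) in blood, and MYH11, smooth muscle myosin, 24287 ± 8980 CPM in aorta (n = 4). PECAM1, an endothelial adhesion molecule that platelets and white cells also carry, averaged 283.9 ± 407.4 CPM in brush libraries (n = 10), against 310.2 ± 225.4 CPM in wire libraries (n = 4).

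The 9 genes together took 0.107% ± 0.127 of all counts in the 10 brush libraries (SD). They took 0.0308% ± 0.0330 in the 4 wire libraries, 0.0408% ± 0.00328 in the 4 aorta libraries and 0.0168% ± 0.00520 in the 2 blood libraries. The brush share was 0.158% ± 0.153 in the kidney libraries and 0.0555% ± 0.0792 in the liver libraries (n = 5 each). The spread was wide on both devices and narrow in aorta. All counts here include 2 abundant unnamed identifiers, which lower the other shares where they are high. On the wire they took 35.9% ± 9.64 of counts. They took 10.6% ± 11.8 in kidney and 27.6% ± 18.5 in liver brush libraries, 6.82% ± 1.52 in aorta and 5.35% ± 1.44 in blood. In bulk RNA, fewer cells that carry a transcript and less of it per cell cannot be told apart. Levels below are CPM after TMM scaling over the 20 libraries with at least 100000 counts. The scaling factors ran from 0.339 in microbrush 6 to 2.06 in microbrush 3. They are not corrected for gene length and are compared between libraries, not between genes.

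**Figure D1:**
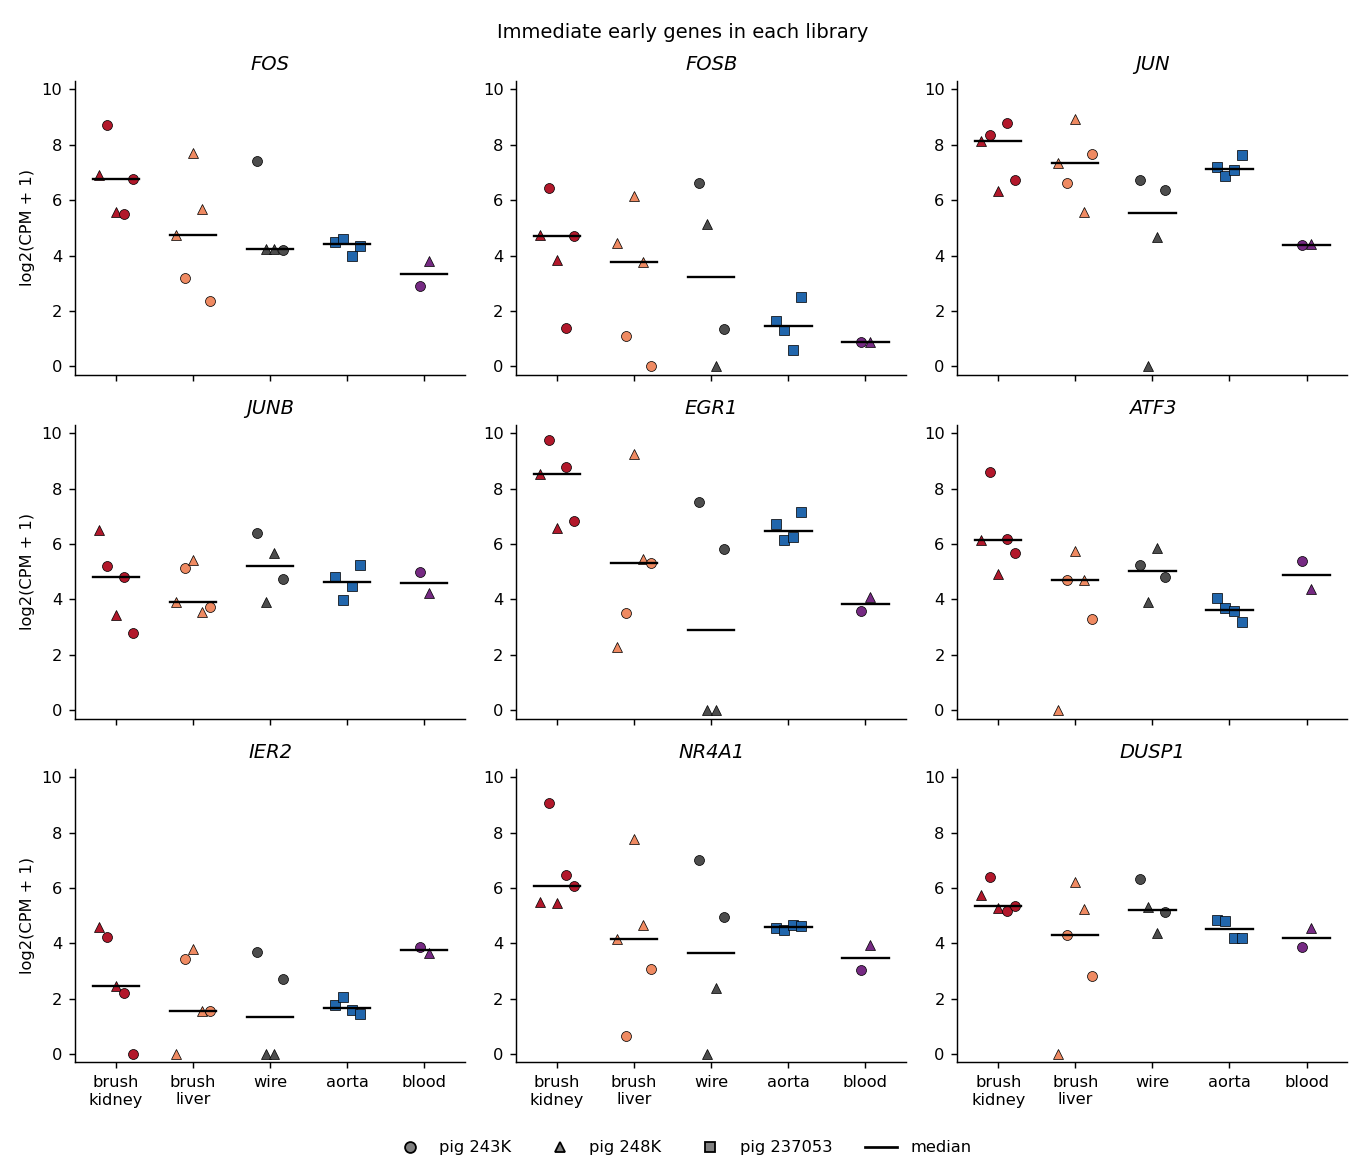
Level of each of the 9 genes in each of 20 libraries, as log2(CPM + 1), by group; marker shapes give the pig and black lines the group median. For every gene the aorta libraries lie closer together than the brush or the wire libraries, and EGR1 is at 0 in 2 of 4 wires.

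FOS and FOSB encode the Fos subunits of AP-1, which bind DNA only as partners of a Jun protein. FOS (ENSSSCG00000002383, chr7:98449508-98451971 in Sscrofa11.1) stood at 118.1, 423, 46.2, 44.8 and 106.3 CPM in kidney microbrush 1, 2, 3, 5 and 10. In liver microbrush 4, 6, 7, 8 and 9 it stood at 25.5, 8.11, 206, 50.6 and 4.08 CPM. Microbrush 2 and 7 were the highest on the brush, and liver microbrush 6 and 9 lay below every wire and aorta library. Wires 1 to 4 held 168, 17.7, 18.0 and 17.2 CPM of FOS, aorta 1 to 4 held 21.3, 23.3, 14.9 and 19.1 CPM, and blood 1 and 3 held 6.42 and 12.9 CPM. Wire 1 stood alone among the wires. Both blood libraries lay below every aorta library, as for 24.1% of the 17082 genes tested in that comparison.

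FOSB (ENSSSCG00000031616, chr6:51836780-51844531) was low in aorta and blood. It stood at 25.9, 84.7, 13.3, 1.63 and 25.1 CPM in kidney microbrush 1, 2, 3, 5 and 10, and at 20.7, 1.16, 70.2, 12.5 and 0 CPM in liver microbrush 4, 6, 7, 8 and 9. The 4 wires, in order of number, held 96.8, 34.2, 0 and 1.52 CPM, aorta 1 to 4 held 2.10, 1.49, 0.496 and 4.68 CPM, and blood 1 and 3 held 0.8286 and 0.8216 CPM. The aorta values rest on 6, 6, 1 and 11 counts and the blood values on 4 counts each. Of the 10 brush libraries, 7 lay above the highest aorta library, and the groups overlapped through microbrush 5, 6 and 9. A count of 0 allows up to 0.489 CPM in microbrush 9 and 0.794 CPM in wire 3, from 3 counts per library, which like every such limit here covers counting error only.

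JUN and JUNB encode Jun subunits, which pair with each other, with Fos proteins or with ATF factors. JUN (ENSSSCG00000031912, chr6:153686425-153687635) stood at 282, 322, 78.8, 438 and 104.5 CPM in kidney microbrush 1, 2, 3, 5 and 10. It stood at 162, 97.3, 487, 46.8 and 202 CPM in liver microbrush 4, 6, 7, 8 and 9. Every brush library held JUN, including microbrush 4 and 9 in which other members were at 0. Wires 1 to 4 held 105.4, 0, 24.6 and 81.4 CPM, aorta 1 to 4 held 145, 116.4, 134 and 195 CPM, and blood 1 and 3 held 19.9 and 20.1 CPM. All 4 wires lay below all 4 aorta libraries, as 13.7% of the 15313 genes tested in that comparison did, and all 10 brush libraries lay above both blood libraries, as 0.841% of 17832 genes did.

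JUNB (ENSSSCG00000013735, chr2:66214086-66219435) ranged from 5.83 to 89.9 CPM in the kidney brush libraries, with microbrush 10 lowest and microbrush 1 highest, and from 10.6 to 41.4 CPM in the liver brush libraries. The 4 wires, in order of number, held 83.8, 13.9, 50.5 and 25.8 CPM, aorta 1 to 4 held 26.9, 14.6, 21.3 and 36.6 CPM, and blood 1 and 3 held 30.7 and 17.7 CPM. All groups overlapped. Its estimated counts were not whole in 16 of the 20 libraries with a count, so its level is uncertain. Those of the other 8 members were whole in every library. Where the fractions come from was not tested. JUNB and IER2 lie 302 kb apart on chromosome 2.

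ATF3 is a stress-induced factor that can pair with Jun and often represses its targets. ATF3 (ENSSSCG00000015595, chr9:130772259-130829678) stood at 69.4, 384, 29.2, 71.7 and 50.7 CPM in kidney microbrush 1, 2, 3, 5 and 10, and at 0, 24.9, 53.1, 25.1 and 8.80 CPM in liver microbrush 4, 6, 7, 8 and 9. Wires 1 to 4 held 36.8, 13.9, 56.3 and 27.3 CPM. Aorta 1 to 4 held 15.7, 11.9, 10.9 and 8.08 CPM and blood 1 and 3 held 41.0 and 19.9 CPM. All 4 aorta libraries lay below both blood libraries, as 19.4% of the 17082 genes tested in that comparison did.

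EGR1 is a zinc finger factor known as an early responder to vessel injury. EGR1 (ENSSSCG00000014336, chr2:140440829-140445302) stood at 369, 869, 94.7, 438 and 114.3 CPM in kidney microbrush 1, 2, 3, 5 and 10. It stood at 3.89, 10.4, 613, 43.4 and 38.5 CPM in liver microbrush 4, 6, 7, 8 and 9. The kidney libraries were all above 4 of the 5 liver libraries, and microbrush 7 was the exception. The 4 wires, in order of number, held 181, 0, 0 and 55.6 CPM, aorta 1 to 4 held 103.5, 70.6, 74.5 and 140 CPM, and blood 1 and 3 held 10.98 and 16.02 CPM. The 2 wires at 0 had totals of 2596935 and 11128400 counts, which allow up to 1.27 and 0.794 CPM, and both were wires with few genes detected.

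NR4A1 encodes an orphan nuclear receptor that is active without a ligand. NR4A1 (ENSSSCG00000031321) lies at chr5:17403088-17407918, where RefSeq's annotation of Sscrofa11.1 lists a pseudogene under this symbol. It stood at 44.2, 536, 42.4, 87.5 and 66.8 CPM in kidney microbrush 1, 2, 3, 5 and 10, and at 16.9, 0.579, 215, 24.6 and 7.34 CPM in liver microbrush 4, 6, 7, 8 and 9. Wires 1 to 4 held 127, 0, 4.23 and 29.8 CPM, aorta 1 to 4 held 22.4, 21.3, 24.3 and 23.8 CPM, and blood 1 and 3 held 7.25 and 14.2 CPM. Aorta was nearly constant, from 21.3 to 24.3 CPM. The kidney brush libraries ran from 42.4 to 536 CPM and the liver brush libraries from 0.579 to 215 CPM.

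IER2, an early response protein of the nucleus, was the member with the fewest counts, 438 over all libraries. IER2 (ENSSSCG00000013753, chr2:65909638-65912491) ranged from 0 to 22.8 CPM in the kidney brush libraries and from 0 to 12.9 CPM in the liver brush libraries. The 4 wires, in order of number, held 11.9, 0, 0 and 5.56 CPM, aorta 1 to 4 held 2.45, 3.22, 1.99 and 1.70 CPM, and blood 1 and 3 held 13.7 and 11.7 CPM. Aorta lay below blood without overlap, as 19.4% of 17082 genes did, and the devices overlapped both.

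DUSP1 is a phosphatase that switches off the MAP kinases and so limits the response; glucocorticoids also induce it. DUSP1 (ENSSSCG00000016991, chr16:51457924-51461095) stood at 52.4, 82.8, 37.9, 34.6 and 39.5 CPM in kidney microbrush 1, 2, 3, 5 and 10, and at 0, 18.5, 74.2, 36.6 and 6.03 CPM in liver microbrush 4, 6, 7, 8 and 9. Wires 1 to 4 held 79.7, 38.4, 19.6 and 34.4 CPM, aorta 1 to 4 held 27.6, 27.0, 17.4 and 17.4 CPM, and blood 1 and 3 held 13.7 and 22.4 CPM. The kidney brush libraries ran from 34.6 to 82.8 CPM, and the liver brush libraries and the wires overlapped both aorta and blood.

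Microbrush 2, from the kidney of pig 243K, was the highest of the 20 libraries for 5 of the 9 genes and among the top 3 for 8. Microbrush 7, from the liver of pig 248K, was among the top 3 for 6, and wire 1, from the liver of pig 243K, for 5. At the other end, microbrush 4, microbrush 9, wire 2 and wire 3 were each among the lowest 3 for 4 genes.

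The libraries with the fewest genes detected were also low for the members. Among the 14 brush and wire libraries, the 5 with the fewest genes detected, at most 15023, also had the 5 lowest means of log2(CPM + 1) over the 9 genes, at most 3.63. The other 9 libraries had at least 15702 genes and means from 4.45 to 7.41. The 5 low libraries were microbrush 4, 6 and 9, all from the liver, and wires 2 and 3, both from pig 248K. Microbrush 6 and wire 3 had the highest totals of their devices. The part of the number of genes in the levels of the members was not tested.

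**Figure D2:**
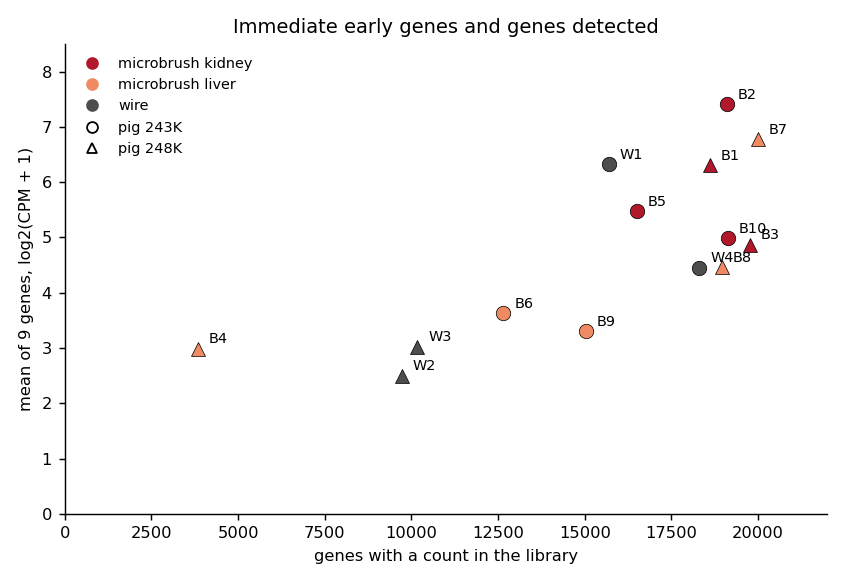
Mean of log2(CPM + 1) over the 9 genes (vertical axis) against the number of genes with a count (horizontal axis) in the 14 brush (B) and wire (W) libraries, by organ and pig. The 5 libraries with at most 15023 genes detected have means of at most 3.63, below the other 9.

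The smooth muscle markers did not order the libraries as the mean of the 9 genes did. Their summed level (10 of 10 markers in the table) ranged from 2734 to 99234 CPM on the brush, from 1740 to 9890 CPM on the wire, from 24807 to 51493 CPM in aorta and from 246 to 277 CPM in blood. Microbrush 2 had 22100 CPM of them and microbrush 7 had 43384 CPM, while microbrush 9, low for 4 members, had 98202 CPM. Single members could differ from the mean. JUN was highest on the brush in microbrush 7, 5, 2, 1 and 9, at 487, 438, 322, 282 and 202 CPM. The same libraries had the highest smooth muscle sums on the brush, with 99234 CPM in microbrush 5 and 44289 CPM in microbrush 1. Platelet markers (5 of 8 in the table) summed to 35.2 to 14737 CPM on the brush, 1950 to 13985 CPM on the wire, 59.6 to 82.7 CPM in aorta and 142 to 380 CPM in blood. Neutrophil markers (4 of 8) summed to 3.91 to 314 CPM on the brush, 137 to 586 CPM on the wire, 44.3 to 82.2 CPM in aorta and 193 to 351 CPM in blood. Microbrush 4 had 4 of the 10 smooth muscle markers and 3 of the 4 neutrophil markers at 0, and held 4886 CPM of the platelet markers.

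The other marker lists also varied between sources. Matrix markers (8 of 8) summed to 217 to 68697 CPM on the brush, 50.5 to 850 CPM on the wire, 3036 to 7537 CPM in aorta and 27.8 to 74.8 CPM in blood. Red cell markers (7 of 8) summed to 178 to 5215 CPM on the brush, 2045 to 35894 CPM on the wire, 71.5 to 87.9 CPM in aorta and 28152 to 43044 CPM in blood. Endothelial markers (9 of 10) summed to 209 to 2951 CPM on the brush, 271 to 1654 CPM on the wire, 144 to 206 CPM in aorta and 140 to 174 CPM in blood. Monocyte and macrophage markers (7 of 8) summed to 166 to 364 CPM on the brush, 101.6 to 304 CPM on the wire, 466 to 1207 CPM in aorta and 273 to 302 CPM in blood. T and NK cell markers (7 of 8) summed to 18.4 to 266 CPM on the brush, 112.5 to 323 CPM on the wire, 68.9 to 147 CPM in aorta and 566 to 1126 CPM in blood. The part of these cell types in the levels of the members was not tested.

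The microbrush was set against the bare wire to see which transcripts a brush adds in the same arteries. No member differed beyond the spread between libraries. By edgeR's quasi-likelihood test with Benjamini-Hochberg adjustment 0 of 9 members tested passed an adjusted p under 0.05, as did 0% of 16439 genes. DESeq2 called 0 members and 0.614% of genes, and limma voom called 0 members and 0% of genes. JUN had the lowest p of the members, with an average of 222 ± 155 CPM in brush libraries, against 52.9 ± 48.9 CPM in wire libraries. Its log2 fold change was 2.02 (95% interval 0.05 to 4.00, unadjusted p = 0.0449, adjusted p = 0.9998 by edgeR), and 3.15% of all genes had an unadjusted p under 0.05. EGR1 averaged 259 ± 300 CPM in brush libraries, against 59.1 ± 85.2 CPM in wire libraries, with a log2 fold change of 2.06 (95% interval -0.53 to 4.66). The intervals of the other 7 members all included 0 and reached from -2.83 for FOSB to 3.71 for IER2. Differences of several fold were therefore not excluded, in a direction that depended on the member. For FOS, ATF3 and NR4A1 the lower ends were -1.05, -0.92 and -1.03. The median log2 fold change was 0.83 over the members and 0.17 over all genes, and under RLE scaling the median over all genes was 0.60.

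The brush and wire libraries were also read by animal, with 2 wires from each pig. In pig 248K the wires were wires 2 and 3, with 9715 and 10169 genes detected, and both held 0 counts of EGR1, against a mean of 225 ± 260 CPM in the 5 brush libraries of that pig (SD). The brush mean was 461 times a floor of 3 counts over these 2 wires together (0.488 CPM). Without microbrush 7, the highest of the 5, it was 262 times that floor. The floor limits the wire side only, and the brush libraries spread widely. Microbrush 4, with 3831 genes detected, held 3.89 CPM of EGR1. IER2, also at 0 in both wires, averaged 8.44 ± 9.42 CPM on the brush of that pig. That mean was 17.3 times the same floor, and 9.94 times it without microbrush 1. These values without 1 library were added after seeing the data. Fitted on pig 248K alone, EGR1 passed edgeR's test (adjusted p = 3.88e-05), the only one of the 9 members to do so, while 0.279% of genes passed. In pig 243K alone 0 members and 0% of 16808 genes passed edgeR's test. The difference between the pigs, tested as an interaction of device and pig, passed for 0 of 9 members and 0% of 17809 genes by edgeR (adjusted p = 0.171 for EGR1), although 19.5% of genes had an unadjusted p under 0.05. DESeq2 called 1 member there, EGR1 (adjusted p = 0.0110), beside 7.83% of genes. EdgeR called EGR1 without microbrush 4 (adjusted p = 0.0483), beside 3.22% of genes. In the other 7 of 9 alternatives EGR1 did not pass, and limma voom called 0 members and 0% of genes. Pig and the number of genes in the wire libraries cannot be told apart. The interaction of device and organ passed for 0 of 9 members and 0% of genes by edgeR, with 1 member, FOS, and 2.95% of genes at an unadjusted p under 0.05; DESeq2 called 0 members and 0.0112% of genes.

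The brush was next compared with aorta, the vessel wall taken by surgery. FOSB, ATF3, FOS and NR4A1 lay highest on the brush relative to aorta, but no member passed. FOS averaged 103.2 ± 128 CPM in brush libraries (n = 10), against 19.7 ± 3.60 CPM in aorta (n = 4), a log2 fold change of 2.39 (95% interval 0.45 to 4.34, adjusted p = 0.691 by edgeR). FOSB averaged 25.5 ± 29.2 against 2.19 ± 1.79 CPM (log2 fold change 3.52, 95% interval 0.87 to 6.18). ATF3 averaged 71.7 ± 112.4 against 11.7 ± 3.16 CPM (2.62, 0.43 to 4.81). NR4A1 averaged 104.1 ± 164 against 23.0 ± 1.38 CPM (2.18, 0.03 to 4.34). The standard deviation on the brush exceeded the mean for all 4 genes.

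Of the 9 members tested 0 passed edgeR's adjusted threshold between brush and aorta, while 0.125% of 16776 genes did. These 4 had an unadjusted p under 0.05, against 4.8% of all genes. The median log2 fold change was 1.68 over the members and -0.17 over all genes. Limma voom, which gives less weight to the more variable libraries, called 5 members higher on the brush, namely FOS (adjusted p = 0.000667), FOSB (0.00500), ATF3 (0.00863), NR4A1 (0.0142) and DUSP1 (0.0211), where it called 4.51% of genes. DESeq2 called 0 members and 1.26% of genes. JUN (0.60, 95% interval -0.88 to 2.08), EGR1 (1.42, -0.64 to 3.48), JUNB (0.18, -1.39 to 1.76), DUSP1 (0.78, -1.002 to 2.56) and IER2 (1.68, -0.74 to 4.09) had intervals that included 0.

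**Figure D3:**
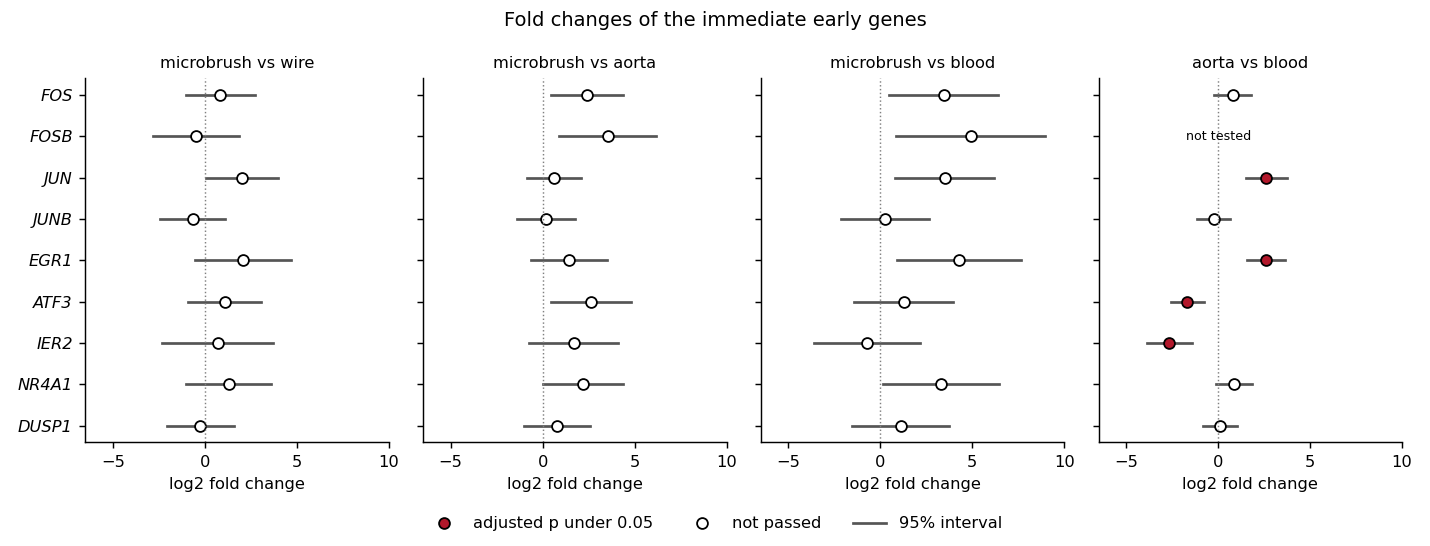
Log2 fold changes (points) with 95% intervals (lines) of the 9 genes in 4 comparisons by edgeR, in the direction each panel title gives; filled points passed an adjusted p under 0.05. Intervals are wide in the 3 brush comparisons and narrow between aorta and blood, where JUN and EGR1 lie above 0 and ATF3 and IER2 below 0.

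Whole blood was the fluid around the device, and its 2 usable libraries held little of several members. EGR1 averaged 259 ± 300 CPM in brush libraries, against 13.5 ± 3.56 CPM in blood (n = 2), a log2 fold change of 4.28 (95% interval 0.90 to 7.67). JUN averaged 222 ± 155 against 20.01 ± 0.170 CPM (3.50, 0.80 to 6.19). FOS averaged 103.2 ± 128 against 9.68 ± 4.61 CPM (3.43, 0.48 to 6.39). FOSB (4.91, 0.86 to 8.96) and NR4A1 (3.30, 0.15 to 6.45) had intervals above 0 as well, whereas those of JUNB, ATF3, IER2 and DUSP1 included 0. IER2 was the member with a negative value, at 7.55 ± 7.98 CPM in brush libraries, against 12.7 ± 1.39 CPM in blood (-0.72, -3.60 to 2.16).

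In this comparison 0 of 9 members passed edgeR's adjusted threshold, against 0.0168% of 17832 genes, and 5 members had an unadjusted p under 0.05, against 3.76% of genes. DESeq2 called JUN (adjusted p = 0.000897), EGR1 (0.0140) and FOS (0.0419) higher on the brush, beside 1.7% of genes. Limma voom called FOS, JUN, EGR1, NR4A1 and DUSP1 higher, beside 6.07% of genes. With the pig as a block edgeR called 0 members, beside 0.0224% of genes.

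The wire libraries, set against aorta and against blood, gave 0 members past edgeR's threshold. Between wire and aorta 7 of the 9 members had enough counts to be tested and 3.57% of 15313 genes passed, and between wire and blood all 9 were tested and 0.0486% of 16461 genes passed. At an unadjusted p under 0.05 there were 0 members of 7 against aorta, beside 12.3% of genes, and 1 of 9 against blood, beside 4.4% of genes; DESeq2 called 0 members in both, beside 7.24% of genes against aorta and 1.49% against blood. Limma voom called 0 members in both, beside 5.34% of genes against aorta and 1.33% against blood. For FOS all 4 wires lay above both blood libraries, as 3.21% of genes did. FOS averaged 55.2 ± 75.1 CPM on the wire (n = 4) and 19.7 ± 3.60 CPM in aorta (log2 fold change 1.60, 95% interval -0.24 to 3.44). JUN averaged 52.9 ± 48.9 against 147 ± 33.7 CPM (-1.39, -3.66 to 0.87). Both the FOS and the NR4A1 values turned on wire 1: without it the log2 fold change was -0.06 for FOS and -0.92 for NR4A1, against 0.92 with it. With wires 1 and 4 alone, a selection made after seeing the data that leaves 1 pig, edgeR called 4 members higher on the wire than in aorta, beside 8.47% of genes, and 4 higher than in blood, beside 5.03% of genes. FOS and NR4A1 were in both sets, with adjusted p of 0.0312 and 0.0245 against aorta and 0.000671 and 0.00505 against blood. Wires 2 and 3, which it left out, were among the 5 lowest of the 14 brush and wire libraries in the mean of the members. The selection thus favours higher members on the wire. These comparisons share the wire libraries.

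Aorta against blood was the comparison with narrow spread, and 4 of the 8 members tested passed, beside 28.5% of 17082 genes; 36.5% of genes had an unadjusted p under 0.05. JUN and EGR1 were higher in aorta and ATF3 and IER2 lower. JUN averaged 147 ± 33.7 CPM in aorta (n = 4) and 20.01 ± 0.170 CPM in blood (n = 2), a log2 fold change of 2.63 (SE 0.57, edgeR adjusted p = 4.22e-05). EGR1 averaged 97.3 ± 32.3 against 13.5 ± 3.56 CPM, a log2 fold change of 2.61 (SE 0.53, edgeR adjusted p = 1.07e-05). ATF3 averaged 11.7 ± 3.16 CPM in aorta and 30.5 ± 14.9 CPM in blood (-1.67, SE 0.47, edgeR adjusted p = 0.00197). IER2 averaged 2.34 ± 0.663 against 12.7 ± 1.39 CPM (-2.66, SE 0.63, edgeR adjusted p = 0.000177), from 4 to 13 counts in each aorta library. Each of the 4 genes separated the groups without overlap, as 24.1% of genes did with aorta above and 19.4% with aorta below.

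FOS (0.80, 95% interval -0.21 to 1.81), NR4A1 (0.87, -0.12 to 1.86), DUSP1 (0.08, -0.85 to 1.01) and JUNB (-0.24, -1.13 to 0.65) did not pass between aorta and blood, and FOSB had too few counts to be tested. DESeq2 and limma voom each called the same number of members, 2 higher and 2 lower, beside 27.5% of genes by DESeq2 and 18.9% by limma voom. All 4 edgeR calls ended with blood 2 included (adjusted p from 0.0609 to 0.633), where 1.49% of genes passed. The log2 fold changes were then 3.03 for JUN, 2.95 for EGR1, -1.29 for ATF3 and -2.43 for IER2. The calls ended too in a common fit of all groups (edgeR adjusted p from 0.646 to 1), where 0.532% of genes passed, with 2.69 for JUN, 2.66 for EGR1, -1.60 for ATF3 and -2.63 for IER2. ATF3 also ended without blood 1, at -0.95 (edgeR adjusted p = 0.345). Both tissues come from different pigs, and T and NK cell markers summed to 68.9 to 147 CPM in aorta and 566 to 1126 CPM in blood.

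By group means the order of the 4 sources differed between members. FOS and NR4A1 ran brush, wire, aorta, blood, and JUN and EGR1 ran brush, aorta, wire, blood. FOSB, JUNB and DUSP1 ran wire, brush, aorta, blood. ATF3 ran brush, wire, blood, aorta, and IER2 ran blood, brush, wire, aorta. Neighbours in these orders did not differ beyond their spread by edgeR, except blood and aorta for ATF3; for FOSB in aorta and blood and IER2 in wire and aorta the step was not tested for lack of counts.

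The make-up of the counts of the 9 genes does not depend on scaling between libraries. JUN and EGR1 together took 57.6% ± 15.97 of them in the 10 brush libraries (SD), 23.9% ± 21.4 in the 4 wire libraries, 69.2% ± 4.41 in the 4 aorta libraries and 24.0% ± 3.71 in the 2 blood libraries. ATF3 and JUNB together took 12.2% ± 6.86 on the brush, 29.5% ± 21.9 on the wire, 10.4% ± 1.06 in aorta and 38.6% ± 15.5 in blood. Wire 3 had the highest value of this last share in the 20 libraries, 61.7%. FOSB took 28.9% of the counts in wire 2, where JUN, EGR1, NR4A1 and IER2 were at 0. Shares were not tested, and longer genes weigh more in them.

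**Figure D4:**
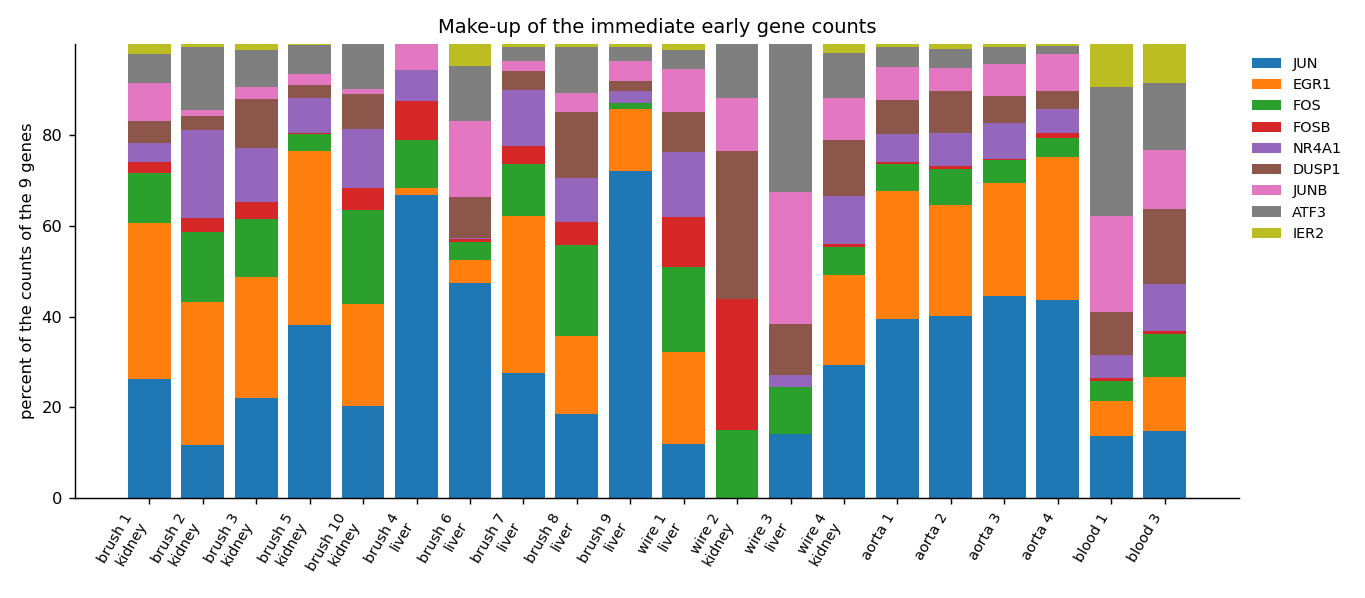
Share of each gene (stacked bars, percent) in the estimated counts of the 9 genes, in each of 20 libraries. JUN and EGR1 make up 64.5% to 75.0% in the 4 aorta libraries and 21.4% and 26.6% in the 2 blood libraries, and wires 2 and 3 hold no EGR1.

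Between the organs, the kidney brush libraries had higher means than the liver brush libraries for all 9 members, and 0 passed. EdgeR tested 8 of them (IER2 had too few counts), called 0, and called 0% of 15013 genes. DESeq2 called 0 members and 0.44% of genes, and limma voom 0 members and 0% of genes. ATF3 averaged 121.01 ± 148 CPM in kidney and 22.4 ± 20.3 CPM in liver libraries (n = 5 each), a log2 fold change of 2.52 (95% interval 0.32 to 4.72, unadjusted p = 0.0261, edgeR adjusted p = 0.9998), the only one of the 8 tested with an unadjusted p under 0.05, against 1.59% of genes. EGR1 averaged 377 ± 314 against 142 ± 264 CPM (1.48, -0.75 to 3.71) and FOS 148 ± 157 against 58.8 ± 84.1 CPM (1.42, -0.62 to 3.45). The median log2 fold change was 1.18 over the members and 0.50 over all genes. Without microbrush 7 the value of EGR1 was 3.97 and without microbrush 2 it was 0.75, neither past the threshold (edgeR adjusted p = 0.491 and 0.9999).

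The pigs gave different values. In pig 243K all 3 kidney libraries lay above both liver libraries for 6 of 8 members (FOS, FOSB, EGR1, ATF3, NR4A1 and DUSP1), as 29.6% of all genes did, and in pig 248K for 0 of 8 members, against 5.43% of genes. Fitted on pig 243K alone, FOS had a log2 fold change of 4.97 (edgeR adjusted p = 0.0544) and 0 members passed, while 5.55% of 16224 genes did. In pig 248K alone FOS was at -0.10. The liver libraries of pig 243K were microbrush 6 and 9, with 12653 and 15023 genes detected, against 16501 to 19125 in its kidney libraries. Whether the organs differ between the pigs was not tested.

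The wider early response was read from 5 lists with 80 genes, of which 71 were in the table under those symbols. Between the brush and the wire 0 of 70 tested passed, and likewise 0 of 70 between brush and aorta, 0 of 71 between brush and blood and 0 of 68 between the organs. The AP-1 and other bZIP partners had a median log2 fold change of 0.28 between brush and wire and the other early transcription factors 0.15. Feedback and RNA decay regulators had -0.08, secreted and signalling targets -0.09 and upstream kinases and factors -0.19, where the median of all genes was 0.17. NR4A2, a sister receptor of NR4A1, averaged 31.5 ± 36.0 CPM in brush libraries, against 6.69 ± 6.999 CPM in wire libraries (log2 fold change 2.15, SE 1.20, edgeR adjusted p = 0.9998). CCN1, a matricellular target of early signalling, averaged 185 ± 225 against 40.6 ± 57.6 CPM (2.10, SE 1.15, edgeR adjusted p = 0.9998). SRF, the factor that binds many early promoters, averaged 70.6 ± 71.4 against 20.7 ± 20.9 CPM (1.75, SE 1.12, edgeR adjusted p = 0.9998). The other genes named from these lists between brush and wire lay on both sides of 0, and each had an edgeR adjusted p of 0.9998. NR4A3, the other sister receptor of NR4A1, had a log2 fold change of 1.63 (SE 1.22). DUSP8, a MAP kinase phosphatase, averaged 5.11 ± 4.14 CPM in brush libraries, against 0.126 ± 0.253 CPM in wire libraries (5.13, SE 2.01, unadjusted p = 0.0144). SPRY2, an inhibitor of growth factor signalling, averaged 3.92 ± 3.48 against 0.253 ± 0.506 CPM (3.86, SE 1.86, unadjusted p = 0.0443). Both genes had a median of 0 CPM on the wire, with at most 0.506 CPM for DUSP8 and 1.01 CPM for SPRY2. Their fold changes therefore rest on wire values near the floor. The bZIP factors BATF3 (log2 fold change -1.01, SE 1.02) and NFIL3 (-0.89, SE 0.93), THBS1 (-1.17, SE 0.88) and the p38 kinase MAPK14 (-1.03, SE 0.80) had negative values. For THBS1, a matricellular protein that platelets store, brush libraries averaged 947 ± 1286 CPM, against 2051 ± 1889 CPM in wire libraries.

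Other genes of these lists passed between wire and aorta, where 4 of 68 tested were higher on the wire and 0 lower, beside 2.8% and 0.764% of all genes. THBS1 averaged 2051 ± 1889 CPM on the wire and 27.4 ± 5.86 CPM in aorta (log2 fold change 6.27, SE 0.74, edgeR adjusted p = 0.00520). The cytokine feedback gene SOCS3 (2.17, SE 0.53, edgeR adjusted p = 0.0478) and the stress kinase gene MAPKAPK2 (3.58, SE 0.73, edgeR adjusted p = 0.0225) also rose. The platelet markers given above were 1950 to 13985 CPM on the wire and 59.6 to 82.7 CPM in aorta, and their part in these values was not tested.

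Between aorta and blood 9 of the 70 tested were higher and 16 lower, beside 9.82% and 18.7% of all genes. Among the upstream kinases and factors 1 was higher and 7 were lower in aorta, with a median of -0.95 against 0.15 for all genes. CREB1, the cAMP-responsive factor, averaged 19.6 ± 5.92 CPM in aorta and 122 ± 69.9 CPM in blood (log2 fold change -2.94, SE 0.44, edgeR adjusted p = 9.65e-10). The kinase genes RPS6KA1 (-3.33, SE 0.45) and MAPKAPK2 (-3.20, SE 0.43) and the SRF partner ELK4 (-2.35, SE 0.49) were lower as well. Feedback and decay regulators had 0 higher and 5 lower, such as ZFP36, which marks early transcripts for decay, at 45.7 ± 27.7 against 137 ± 35.8 CPM (-1.86, SE 0.46, edgeR adjusted p = 0.000439). The other early transcription factors split, with 3 higher and 3 lower. KLF2, a flow-responsive factor that lymphocytes also use, averaged 4.03 ± 0.740 against 97.5 ± 42.0 CPM (-4.86, SE 0.45, edgeR adjusted p = 5.34e-24). MYC (-2.08, SE 0.42) and IER5 (-1.73, SE 0.42) were lower too, while IER5L was higher (4.41, SE 1.08). IER5L averaged 6.12 ± 2.25 CPM in aorta and ran from 0 to 0.414 CPM in blood, so its value rests on blood levels near the floor.

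Secreted and signalling targets had 4 higher and 1 lower in aorta than in blood. CCN2, a matricellular target of early signalling, averaged 116.5 ± 60.4 CPM in aorta and 8.13 ± 4.18 CPM in blood (log2 fold change 3.63, SE 0.59, edgeR adjusted p = 1.44e-08). The chemokine gene CCL2 (2.29, SE 0.77) was higher too, and THBS1 was lower, at 27.4 ± 5.86 against 277 ± 180 CPM (-3.64, SE 0.51). Of the bZIP partners 1 passed, FOSL2, a Fos relative, at 229 ± 38.3 against 59.2 ± 3.86 CPM (1.70, SE 0.58, edgeR adjusted p = 0.0156).

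The genes whose levels followed the members most closely over the 20 libraries were ranked by Pearson's r between log2(CPM + 1) and the mean of the members, among 9716 genes with a symbol and a mean of at least 10 CPM. The first 10 were ADAMTS8 (r = 0.82), NR4A2 (0.81), TMEM266 (0.76), CCN1 (0.75), ERRFI1 (0.75), TSPAN18 (0.74), NR2F1 (0.73), HOXC5 (0.73), ADAMTS15 (0.73) and CDH20 (0.72). NR4A2 and CCN1 stand on the lists of early genes above, and ERRFI1 encodes a feedback inhibitor of the EGF receptor. Over the 14 brush and wire libraries r lay between 0.73 and 0.87 for these genes. The points share pigs, organs and the number of genes detected, so r is a description. CCN1 ranged from 18.6 to 734 CPM on the brush, from 0 to 122 CPM on the wire, from 30.5 to 42.7 CPM in aorta and from 6.01 to 18.1 CPM in blood, with aorta again the narrowest of the vessel groups.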

How the data were processed

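The submitters' processing notes name Salmon, DESeq2 and the genome build Sscrofa11.1. Tool versions, the annotation release and read trimming are not given in the sources used here. Per the labels' protocols, RNA was isolated with the RNAdvance Tissue kit, scaled down, and libraries were made with SMARTer Pico. The authors deposited estimated counts per gene for 21 libraries, not scaled between libraries; 11.9% of the values are not whole, and they were rounded for the tests. Symbols came from the supplied gene names (14692 of 24358 genes), coordinates from RefSeq's table of the same build, matched by symbol.

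Groups, organs and pigs were taken from the labels. Levels are CPM after TMM scaling over the 20 libraries with at least 100000 counts. Comparisons were fitted separately, on the libraries concerned and over the whole table, with edgeR 4.0.16 in R 4.3.3 (filterByExpr with a minimum count of 10, TMM, robust quasi-likelihood). P-values were adjusted over all genes tested by Benjamini-Hochberg and read at 0.05. DESeq2 1.42.0 and limma 3.58.1 (voom with quality weights) were alternatives, beside RLE scaling, no filter, pig as a block, single pigs and organs, a common fit and libraries left out. A check of the fit used simulated counts with the same dispersion for all genes. It does not show how the fit behaves on libraries as uneven as these. The members and lists were chosen with earlier results of these data known. Named genes are all members, up to 4 genes per list and comparison that passed (up to 2 per list where none passed between brush and wire), the 10 genes most like the members, and the marker lists with their lead markers. A gene that this rule names is not reported here.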

Additional observations from a re-analysis of the deposited data

Results flagged for a closer look

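The level of FOS in wire 1, 168 CPM, stood apart from the other 3 wires, the nearest of which had 18.0 CPM; on the log2(CPM + 1) scale the gap took 0.981 of the range of the group. Of 27 combinations of gene and group checked in this way 1 was marked, and chance marks about 1 in 20 groups.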

How the results depend on the processing

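Of 990 member values under the alternatives, 895 kept their direction and side of the threshold, 23 newly passed, 9 no longer passed and 63 changed sign; the cause was not tested. The number of members that passed stayed within 1.5 times under every alternative for kidney against liver and device by organ. It was 1 for brush against wire in pig 248K alone, 5 for brush against aorta with limma voom, and 3 with DESeq2 and 5 with limma voom for brush against blood. In libraries with at least 11000 genes detected, chosen after seeing the data, it was 4 for wire against aorta and 4 for wire against blood. For aorta against blood it was 0 with blood 2 and 0 in the common fit. For device by pig it was 1 with DESeq2. Leaving out 1 library gave 3 to 4 for aorta against blood, 0 to 1 for device by pig, and 0 to 0 elsewhere. With the pig as a block the count was 0 in each comparison where it could be fitted.

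Sign changes in log2 fold change, brush against wire: DUSP1 0.15 (RLE), 0.15 (DESeq2), 0.20 (limma voom), 0.43 (kidney alone) and 0.65 (pig 248K alone); FOSB 1.87 (limma voom), 0.73 (kidney) and 0.72 (pig 248K); JUNB 0.76 (kidney) and 0.32 (pig 248K); in liver alone FOS -0.67, ATF3 -0.92, IER2 -0.34 and NR4A1 -0.34; IER2 -0.40 in pig 243K and -0.098 with at least 11000 genes detected. JUNB between brush and aorta was -0.29 with RLE, -0.29 with DESeq2 and -0.0047 with limma voom, and between brush and blood -0.017 without a filter, -0.045 with limma voom and -0.0039 in the common fit. EGR1 between wire and aorta was 0.34 with at least 11000 genes detected. ATF3 between wire and blood was 0.49 (RLE), 0.32 (no filter), 0.49 (DESeq2), 0.066 (limma voom), 0.63 (blood 2 included) and 0.026 (pig block), where the block also gave EGR1 -4.31 and NR4A1 -1.16. JUNB between aorta and blood was 0.14 with blood 2. Between kidney and liver, JUNB was -0.19 with limma voom and -0.020 in pig 243K, and in pig 248K FOS was -0.097, FOSB -0.70, JUN -0.20 and NR4A1 -0.93. For device by organ, limma voom gave FOSB -1.17 and IER2 -0.33.

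Leaving out 1 library, values ran from -0.43 to 0.23 for DUSP1 and -0.79 to 0.96 for FOSB between brush and wire, and for JUNB from -0.0080 to 0.41 between brush and aorta and -0.38 to 0.69 between brush and blood. Between wire and aorta they ran from -0.062 to 1.91 for FOS and -0.92 to 1.33 for NR4A1, and between wire and blood from -0.31 to 0.53 for ATF3. Between aorta and blood they ran from -0.68 to 0.30 for JUNB and -0.18 to 0.33 for DUSP1, and between kidney and liver from -0.064 to 1.09 for JUNB and -0.42 to 1.80 for FOSB. For device by organ they ran from -8.29 to 5.49 for FOSB, -0.56 to 11.07 for JUN, -7.96 to 12.67 for EGR1, -5.17 to 8.33 for IER2, -0.37 to 12.34 for NR4A1 and -0.17 to 2.0004 for DUSP1, and for device by pig from -0.41 to 3.01 for FOS and -3.16 to 10.63 for FOSB. Of 36 group means, 9 moved by over 1 SD under RLE scaling, 6 without scaling and 11 without 2 abundant unnamed identifiers. Depth limits IER2 and FOSB most.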
